A study of Canis lupus familiaris with 13 samples.

Results

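The genes described here act while a cell divides. They encode the cyclins and kinases that start mitosis, the proteins that condense chromosomes, the kinetochore, the spindle with its motors, the spindle checkpoint, and the machinery that cuts the daughter cells apart. Many of them are switched on together late in the cell cycle by the B-Myb and MuvB complex with FOXM1, and their transcripts are scarce in resting cells. In tumour tissue their levels are commonly read as a measure of proliferation. A list of 46 such genes was matched by gene symbol to the probe sets of an Affymetrix canine array, and 39 of them had at least 1 probe set that names that gene alone, 82 probe sets in all, out of 15115 named genes and 42924 probe sets tested. CCNB1, CKS2, BUB1, MAD2L1, CENPE, MKI67 and KIF20A had no such probe set and are not analysed here.

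Tumour biopsies came from dogs with soft tissue sarcoma, the name for cancers that arise in connective tissues. Total RNA of 5 primary tumours of the metastatic group (MET1 to MET5) was set against that of 8 primary tumours of the non-metastatic group (NM1 to NM8), in which no metastasis was seen over 1 year or more. All were untreated, and the comparison asks which transcripts differ in primary tumours by metastatic status. The labels give neither sarcoma subtype, grade, breed, age nor sex, and do not say whether each tumour came from its own dog, so the p-values speak only for the spread among the arrays.

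Values are log2 intensities as deposited, with array medians between 6.71 and 6.94. Mesenchymal markers were high in both groups, with list means of 11.89 to 12.63 in metastatic and 11.66 to 12.63 in non-metastatic tumours, and 1 of the 10, THY1, fell. Of the 10 lymphocyte, 10 myeloid and 9 endothelial markers measured, 0 passed the test in either direction. Lymphocyte list means were 6.38 to 6.79 in metastatic and 6.38 to 6.86 in non-metastatic tumours, and no marker was listed at 0 in any sample. The 8 skeletal muscle markers averaged 6.61 to 8.88 in metastatic and 6.28 to 7.05 in non-metastatic tumours, and the 6 adipocyte markers 5.58 to 7.92 and 5.45 to 7.20, with 0 past the threshold in both lists. The epithelial list averaged 4.64 to 5.63 in metastatic and 5.12 to 6.55 in non-metastatic tumours, and 1 of its 5 measured genes, KRT8, fell. Bacterial poly-A spike-in transcripts, which are added to RNA before labelling, split the arrays: their 3′ probe sets averaged 8.12 to 9.02 in 10 samples and 4.48 to 4.95 in NM1, NM3 and NM4. In NM2 the 3′ value exceeded the 5′ value by 3.54, against at most 0.959 elsewhere. Both groups are found only among the 9 samples with an even spike-in signal, MET1 to MET5 and NM5 to NM8, so each comparison was refitted within them. The ACTB 3′ minus 5′ value, which rises as RNA degrades, averaged 1.96 ± 0.59 over MET1 to MET5 (SD, n = 5), against 1.47 ± 0.92 over NM1 to NM8 (SD, n = 8). It followed the spike-in split, at 0.39 to 0.88 in NM1, NM3 and NM4, 1.23 to 2.24 in NM5 to NM8 and 3.14 in NM2. In MET1 to MET5 it was 1.40 to 2.87.

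Mitotic genes were higher as a group in metastatic tumours. The list was chosen with earlier results of these data known, so the shares of all genes beside it are a description and not a test. Of the 39 measured genes, 22 rose and 0 fell (limma, Benjamini-Hochberg adjusted over all probe sets), against 1.65% of all genes higher and 3.7% lower at their chosen probe sets. At an unadjusted p under 0.05 the counts were 32 higher and 1 lower, against 1808 of 15115 genes in each direction. The median difference was 1.06 on the log2 scale, against 0.05 over all genes, and 38 of 39 differences were positive, against 56.1% of all genes. In 15 genes every metastatic tumour lay above every non-metastatic one, which held for 1.35% of all genes, and in 0 every one lay below (1.61%). The probe set with the highest mean over the 13 arrays stands for each gene. Spike-in probe sets on the arrays without spike-in reached 7.16, and values up to that level are not told apart from no target. The non-metastatic mean was not above it in 12 of the 22 genes that rose, and neither group's mean was in 6 of the 39 (TTK, KIF2C, HMMR, NCAPH, SMC2 and ANLN). Among the markers neither mean was above it in 6 of 10 lymphocyte, 2 of 10 myeloid and 1 of 9 endothelial genes. The same held for 4 of 5 epithelial, 5 of 8 skeletal muscle and 3 of 6 adipocyte genes, so their group means say little about cell content. In MET5, though, the muscle genes MYH2, MYL1 and TNNT3 were 9.28, 9.49 and 8.55. In MET1 to MET4 they were 3.94 to 4.53, 6.23 to 6.59 and 5.84 to 6.12. MYH1, at 6.22 in MET5, was lowest there among metastatic tumours. Whether MET5 held more muscle was not tested. Biopsies mix cell types, and more dividing cells and more RNA per dividing cell cannot be told apart.

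The median difference was about as large among samples alike in spike-in signal, while fewer genes passed there. Within the 9 samples of even spike-in signal the median was 1.03, against 0.03 over all genes. There 37 of 39 differences were positive, against 8292 of 15115 genes. There 6 genes rose (0.576% of all genes) and 1 fell (2.24%), and in 18 every metastatic tumour lay above every non-metastatic one (4.47%), with 1 below (5.12%). The 6 were CDK1, CCNA2, PLK1, FOXM1, DLGAP5 and SMC4. With spike-in status as a term, 12 rose (0.932% of all probe sets). With only NM1, NM3 and NM4 left out, so that NM2 stayed, 1 rose (0.107% of all probe sets). Over all samples 12 genes rose without MET1 (0.545% of all probe sets) and 13 without MET5 (0.697%). In the fit of all 13 samples 1.56% of all probe sets rose, so calls were fewer over the whole array too. Within the 9 samples the 6 calls became 0 without NM8 (24 at an unadjusted p under 0.05), 1 without MET1, MET2, MET5 or NM6, 2 without NM5 or NM7, and 15 without MET3. The median difference in those fits stayed between 0.84 and 1.17. How many of all genes passed in each of those fits, adjusted or unadjusted, is not given here. The changes in count therefore cannot be assigned to mitotic genes alone.

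**Figure D1:**
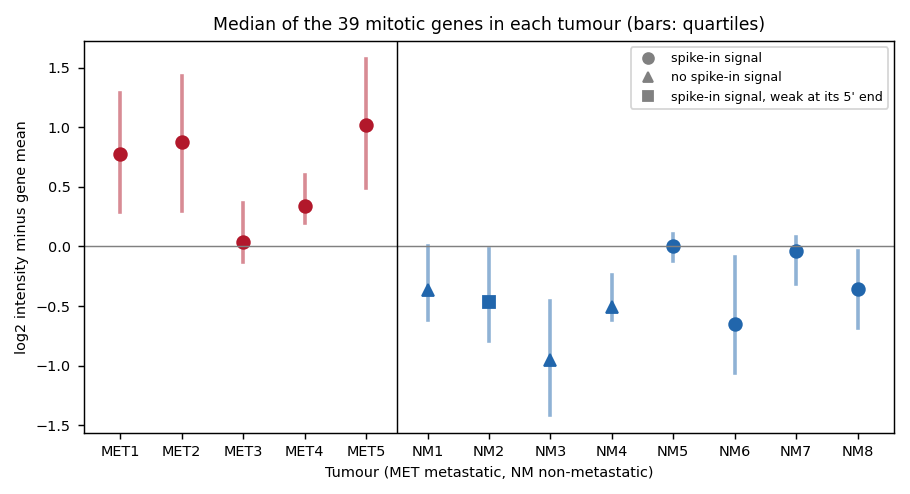
Median of the 39 genes in each tumour, as log2 intensity minus each gene's mean over the 13 tumours, with quartiles as bars. Metastatic tumours (red) lie between 0.04 and 1.02 and non-metastatic tumours (blue) between -0.96 and 0.00, so that MET3 and NM5 all but meet, and marker shape gives spike-in status.

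Tumours of each group were not alike in these genes. After each gene was centred on its mean, the median of the 39 genes was 1.02 in MET5, 0.88 in MET2, 0.78 in MET1, 0.34 in MET4 and 0.04 in MET3. Among non-metastatic tumours it was highest in NM5 at 0.00 and NM7 at -0.04, and lowest in NM6 at -0.65 and NM3 at -0.96. The lowest metastatic median therefore lay above the highest non-metastatic one by very little. MET5 held the highest metastatic value in 19 of the 39 genes and MET2 in 14, against 20.2% and 24.6% of all genes, while MET3 held the lowest in 26, against 16.6% of all genes. NM5 was the highest non-metastatic tumour in 13 genes (8.21% of all genes) and NM3 the lowest in 22 (16.9%). The median SD of a mitotic gene across MET1 to MET5 was 0.51 and across NM1 to NM8 0.50, against 0.24 and 0.32 for all genes. In 26 of the 39 genes the metastatic SD was the larger one, as it was in 35.7% of all genes.

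**Figure D2:**
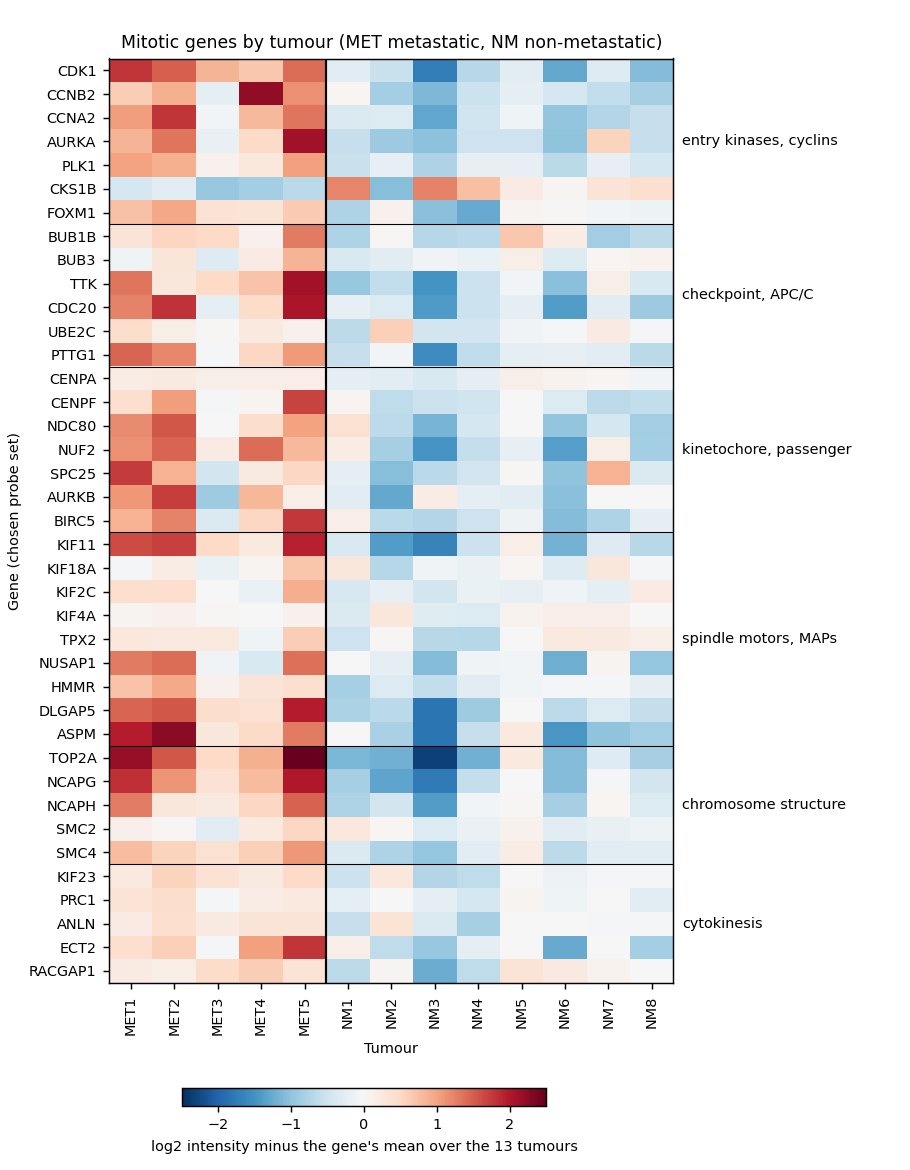
Log2 intensity of each mitotic gene at its chosen probe set minus the gene's mean, one row a gene and one column a tumour, metastatic left of the line. Red is above and blue below the mean. CKS1B is blue in the metastatic columns, and MET3 and MET4 are paler than MET1, MET2 and MET5.

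Among the kinases and cyclins that take cells into mitosis, 6 of 7 measured genes rose and CKS1B did not follow them. CDK1, the kinase whose activation starts mitosis, was 10.33, 10.02, 9.38, 9.21 and 9.94 in MET1 to MET5, against a lowest, median and highest value of 6.81, 7.92 and 8.27 in non-metastatic tumours. The groups did not overlap, and the difference of 2.02 ± 0.27 (SE, adjusted p = 0.00262) is 4.04-fold. It was 1.98 ± 0.29 within the samples of even spike-in signal (adjusted p = 0.0136). CDK1 was also the single mitotic gene that kept its call when NM1, NM3 and NM4 were left out, and its 3 probe sets gave 2.02, 2.22 and 2.55.

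CCNA2 encodes cyclin A2, a partner of CDK1 and CDK2. It was 8.35, 9.09, 7.23, 8.12 and 8.65 in MET1 to MET5, against 6.0, 6.76 and 7.19 (lowest, median, highest) in non-metastatic tumours. MET3 lay just above NM5, the highest of the other group, and the difference was 1.60 ± 0.27 (SE, adjusted p = 0.00665). CCNB2, a B-type cyclin, rose by 1.49 ± 0.32 (SE, adjusted p = 0.0191), and here MET4, at 10.27, stood above the other metastatic tumours, at 7.81 to 9.20.

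PLK1, a kinase of mitotic entry, centrosomes and cytokinesis, was 8.13, 8.02, 7.23, 7.40 and 8.15 in MET1 to MET5, against 6.36, 6.81 and 6.93 in non-metastatic tumours. All metastatic values were higher, by 1.06 ± 0.18 (SE, adjusted p = 0.0071) on average. AURKA, the kinase of the spindle poles, was 8.11, 8.60, 7.08, 7.74 and 9.36, against 6.24, 6.68 and 7.83. NM7 lay above MET3 and MET4, and the difference of 1.49 ± 0.34 (SE, adjusted p = 0.0263) lost its call in 4 of the 13 fits that leave out 1 tumour.

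FOXM1, the transcription factor that drives many of the other genes, was 8.54, 8.78, 8.18, 8.15 and 8.47 in MET1 to MET5, against 6.55, 7.71 and 7.92 in non-metastatic tumours. The groups did not overlap, but the difference of 1.00 ± 0.25 (SE, adjusted p = 0.0373) lost its call in 8 of 13 such fits. FOXM1 also differed by spike-in status: NM5 to NM8 averaged 7.79 and NM1, NM3 and NM4 averaged 6.79 (adjusted p = 0.00551). Within the samples of even spike-in signal the difference was 0.64 ± 0.14 (adjusted p = 0.0495). Its other probe set differed by 0.25 without passing.

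CKS1B, a small subunit bound to cyclin-dependent kinases that also serves in the breakdown of the inhibitor p27, went the other way. It was 9.16, 9.34, 8.65, 8.75 and 8.93 in MET1 to MET5, against 8.54, 9.96 and 10.83 in non-metastatic tumours. All metastatic values lay below those of every non-metastatic tumour but NM2, which was lowest of all. Over 13 samples the difference of -1.02 ± 0.32 (SE) was not past the threshold (adjusted p = 0.0769). Within the samples of even spike-in signal CKS1B fell by 0.88 ± 0.15 (SE, adjusted p = 0.0227), with no overlap between groups. Its 3 probe sets had the same sign, at -1.02, -0.89 and -0.60, and all 3 passed there. Its call among those samples was lost without MET5, NM5, NM7 or NM8 in turn, and also after quantile normalization. Over all samples it fell when NM2 was left out. CKS1B also differed by spike-in status, averaging 9.85 in NM5 to NM8 and 10.66 in NM1, NM3 and NM4 (adjusted p = 0.0135).

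**Figure D3:**
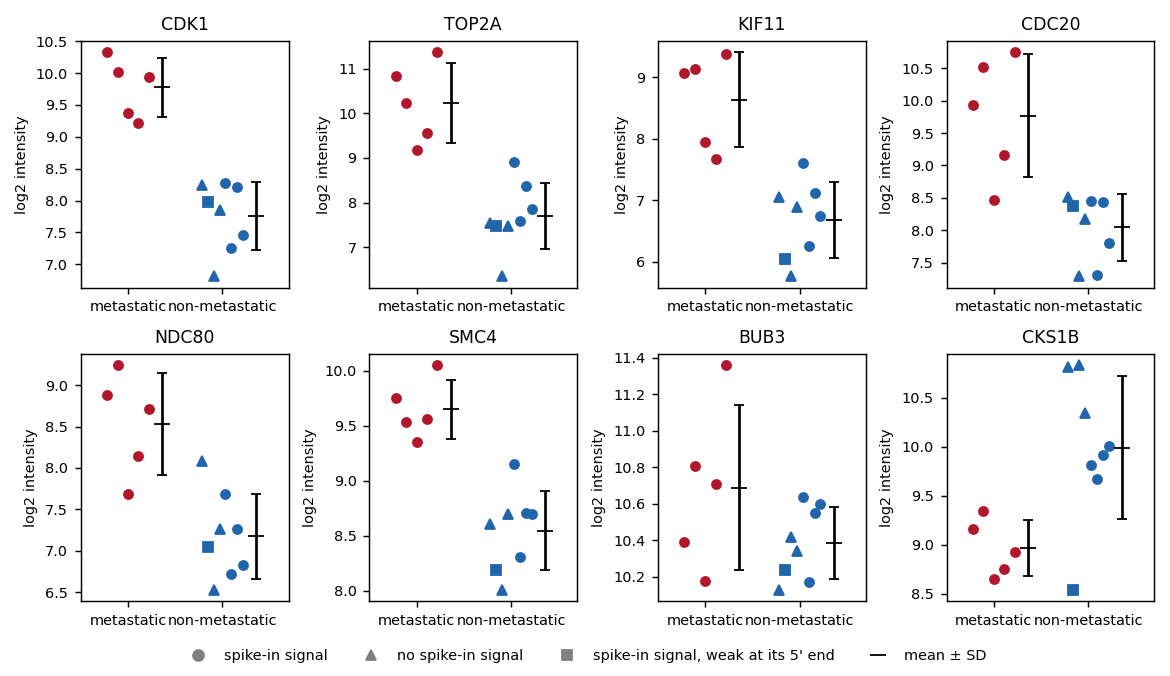
Log2 intensity of 8 genes in each tumour, with group means and SD (n = 5 metastatic, n = 8 non-metastatic) beside the points and marker shape for spike-in status. CDK1, TOP2A, KIF11 and SMC4 do not overlap between groups, and BUB3 overlaps in MET1 and MET3. CKS1B is lower in the metastatic tumours than in every non-metastatic tumour but NM2.

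Genes that shape and untangle chromosomes included the largest difference of the 39 at a chosen probe set. Of 5 measured, 4 rose. TOP2A, the topoisomerase that separates replicated DNA and the target of doxorubicin, was 10.85, 10.23, 9.18, 9.56 and 11.38 in MET1 to MET5, against 6.34, 7.57 and 8.91 in non-metastatic tumours. The groups did not overlap, with MET3 lowest and NM5 highest of its group. The difference was 2.55 ± 0.41 (SE, adjusted p = 0.00529), or 5.84-fold, and 2.06 ± 0.46 within the samples of even spike-in signal, where it was not past the threshold (adjusted p = 0.0512). Its other probe set passed there, at 2.10.

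Condensin, the ring that compacts chromosomes, is built on SMC2 and SMC4. SMC4 was 9.75, 9.53, 9.35, 9.56 and 10.05 in MET1 to MET5, against 8.01, 8.65 and 9.15 in non-metastatic tumours. It rose without overlap, by 1.10 ± 0.19 (SE, adjusted p = 0.0063), and also within the samples of even spike-in signal (0.93, adjusted p = 0.0383). SMC2, its partner, was 5.45, 5.35, 5.04, 5.56 and 5.84, against 4.98, 5.17 and 5.59. That difference of 0.21 ± 0.15 (SE, adjusted p = 0.389) was not past the threshold. All SMC2 values lay below 7.16, and so by that limit were not told apart from no target. NCAPG and NCAPH, other subunits of condensin I, rose by 1.98 and 1.23 (adjusted p = 0.00635 and 0.0256).

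Kinetochore genes were higher as well, with 4 of the 7 measured genes of kinetochores and the chromosomal passenger complex past the threshold. NDC80 and NUF2 form the arm of the kinetochore that grips microtubules. NUF2 was 8.40, 8.72, 7.47, 8.66 and 8.08 in MET1 to MET5, against 5.78, 6.54 and 7.44 in non-metastatic tumours, a difference of 1.63 ± 0.31 (SE, adjusted p = 0.0117). NDC80 was 8.88, 9.24, 7.68, 8.14 and 8.71, against 6.53, 7.16 and 8.08, and rose by 1.35 ± 0.29 (SE, adjusted p = 0.0195). NUF2 did not overlap, while for NDC80 MET3 equalled NM5 and lay below NM1. SPC25, of the same complex, differed by 0.94 ± 0.36 (SE) and was not past the threshold (adjusted p = 0.136), with NM7 at 8.66 beside metastatic values of 7.35 to 9.54. CENPF, which joins the outer kinetochore late in the cycle, rose by 1.03 ± 0.26 (SE, adjusted p = 0.0386), a call lost in 8 of 13 fits without 1 tumour.

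The passenger complex corrects faulty attachments through AURKB, which needs BIRC5 (survivin). BIRC5 was 8.95, 9.32, 7.72, 8.60 and 9.85 in MET1 to MET5, against 6.99, 7.48 and 8.24 in non-metastatic tumours. MET3 lay below NM1, NM5 and NM8, and BIRC5 rose by 1.31 ± 0.30 (SE, adjusted p = 0.027), but its call was lost in 5 of 13 fits without 1 tumour. AURKB was 10.49, 11.13, 8.53, 10.23 and 9.58, against 8.13, 9.16 and 9.59, so that MET3 lay below the non-metastatic median. Its difference of 0.95 ± 0.37 (SE, adjusted p = 0.151) was not past the threshold, nor was its other probe set (0.93), while it passed without MET3 (1.31).

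On the spindle, 4 of 9 motors and microtubule-binding proteins rose. KIF11, the kinesin that pushes the poles apart, was 9.06, 9.14, 7.94, 7.67 and 9.37 in MET1 to MET5, against 5.76, 6.82 and 7.60 in non-metastatic tumours, and rose by 1.95 ± 0.35 (SE, adjusted p = 0.00918). DLGAP5, which stabilises microtubules near chromosomes, was 9.56, 9.66, 8.55, 8.50 and 10.08, against 6.29, 7.45 and 8.10, and rose by 1.88 ± 0.31 (SE, adjusted p = 0.00572). Neither gene overlapped between groups, and in both MET3 and MET4 were the lowest metastatic tumours. ASPM, which organises spindle poles, rose by 2.04 ± 0.39 (SE, adjusted p = 0.0121), and the hyaluronan- and microtubule-binding HMMR by 0.81 ± 0.17 (SE, adjusted p = 0.0198). NUSAP1 (1.17), KIF2C (0.52), TPX2 (0.42), KIF18A (0.24) and KIF4A (0.10) were not past the threshold at their chosen probe sets. The KIF4A difference was -0.04 within the samples of even spike-in signal.

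The spindle checkpoint holds the anaphase-promoting complex back until all chromosomes are attached. TTK, the kinase at its head, was 7.27, 6.21, 6.43, 6.65 and 8.02 in MET1 to MET5, against 4.44, 5.36 and 6.08 in non-metastatic tumours. It rose by 1.60 ± 0.32 (SE, adjusted p = 0.0144) without overlap, at levels whose means in both groups were not above 7.16. BUB3, a checkpoint protein that binds other BUB proteins, was 10.39, 10.81, 10.18, 10.71 and 11.36, against 10.13, 10.38 and 10.64. MET1 and MET3 lay within the non-metastatic range, while MET2, MET4 and MET5 lay above it. The difference of 0.30 ± 0.18 (SE, adjusted p = 0.306) was not past the threshold, and 0 of the 4 BUB3 probe sets passed. BUB1B, the kinase-like checkpoint protein BubR1, differed by 0.90 ± 0.28 (SE, adjusted p = 0.0762).

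CDC20, the activator that the checkpoint restrains, was 9.94, 10.52, 8.47, 9.16 and 10.75 in MET1 to MET5, against 7.29, 8.28 and 8.51 in non-metastatic tumours. MET3 lay just under NM1, and CDC20 rose by 1.72 ± 0.36 (SE, adjusted p = 0.0185). PTTG1, or securin, whose destruction frees separase, was 9.72, 9.46, 8.21, 8.77 and 9.33, against 6.68, 7.84 and 8.20, and rose by 1.36 ± 0.28 (SE, adjusted p = 0.0164). Of the 6 measured checkpoint and anaphase genes, 3 passed.

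Cytokinesis genes had the smallest median difference of the 6 role groups, 0.58, and 1 of 5 rose at its chosen probe set. ECT2, which activates RHOA at the cleavage furrow, was 7.43, 7.61, 6.95, 8.04 and 8.80 in MET1 to MET5, against 5.75, 6.57 and 7.15 in non-metastatic tumours. It rose by 1.24 ± 0.31 (SE, adjusted p = 0.0362), with MET3 inside the non-metastatic range, and lost its call in 8 of 13 fits without 1 tumour. KIF23, the motor of centralspindlin, was 8.36, 8.68, 8.49, 8.35 and 8.60, against 7.38, 8.04 and 8.38, and was not past the threshold (0.61 ± 0.17, SE, adjusted p = 0.0577). PRC1, which bundles the microtubules of the midzone, was 7.49, 7.59, 7.12, 7.33 and 7.39, against 6.71, 6.97 and 7.21, and was not past it either (0.39 ± 0.12, SE, adjusted p = 0.0776). The overlap came from NM2 in KIF23, and from MET3 in PRC1. RACGAP1, the partner of KIF23, and ANLN, an actin-binding scaffold of the furrow, differed by 0.58 and 0.48 (adjusted p = 0.171 and 0.119).

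**Figure D4:**
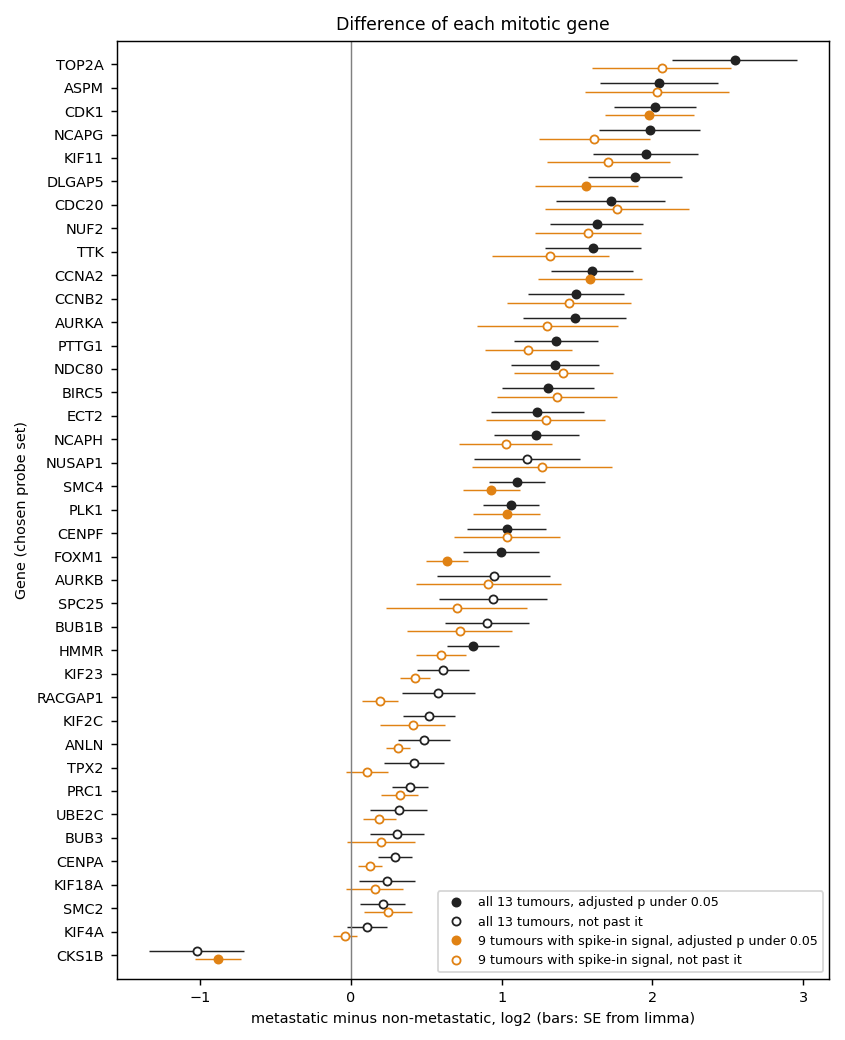
Difference of each of the 39 genes at its chosen probe set, as metastatic minus non-metastatic log2 intensity with its SE from limma, over all 13 tumours (black) and within the 9 of even spike-in signal (orange). Filled points have an adjusted p under 0.05. Differences run from -1.02 (CKS1B) to 2.55 (TOP2A).

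Which probe set stands for a gene changed several of these results. Of the 27 genes with more than 1 probe set, 10 had probe sets that differed in passing the threshold and 5 had probe sets that differed in sign (KIF2C, NUSAP1, HMMR, NCAPG and SMC2). Counting genes with at least 1 probe set past the threshold gave 28 of 39 higher, against 2.41% of all genes. Over all 82 probe sets 43 rose (1.56% of all probe sets) and 0 fell (3.34%). At an unadjusted p under 0.05, 3 were lower, against 5049 of all 42924 probe sets. Of the 82, 74 were positive (55.1%), 30 had every metastatic tumour above every non-metastatic one (1.18%) and 0 below (1.45%). Within the samples of even spike-in signal 17 rose (0.578%) and 3, all of CKS1B, fell (2.2%), while 37 lay wholly above (4.39%) and 3 wholly below (4.94%). The 6 genes gained in this way were UBE2C, CENPA, TPX2, NUSAP1, KIF23 and PRC1. UBE2C, the ubiquitin-conjugating enzyme of the anaphase-promoting complex, differed by 0.32 at its chosen probe set, with 7.38 to 7.79 in metastatic and 6.68 to 7.94 in non-metastatic tumours. Another UBE2C probe set was brighter in metastatic tumours (mean 8.18 against 7.54) and dimmer in non-metastatic ones (6.35 against 7.22). It was 8.54, 8.38, 7.15, 7.99 and 8.85 in MET1 to MET5, against 5.94, 6.26 and 6.96, and rose by 1.83 ± 0.26 (SE, adjusted p = 0.00311).

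In KIF23 too a second probe set passed, at 8.22, 8.61, 7.54, 7.92 and 9.10 in MET1 to MET5, against 4.67, 5.90 and 7.11 in non-metastatic tumours. It rose by 2.29 ± 0.36 (SE, adjusted p = 0.00429), and by 1.82 within the samples of even spike-in signal (adjusted p = 0.0313). The second probe sets of PRC1 (1.54, adjusted p = 0.00367), TPX2 (1.14, adjusted p = 0.00548) and CENPA (1.02, adjusted p = 0.00509) rose too. At the probe sets past the threshold of these 6 genes the non-metastatic mean was not above 7.16, and at that of CENPA neither mean was, so the sizes of these differences are uncertain. CENPA, the histone that marks centromeres, ran only from 8.85 to 8.93 in metastatic tumours at its chosen probe set, against 8.32 to 8.85 in non-metastatic tumours. With all probe sets of a gene averaged, 27 of 39 genes rose, against 2.18% of all genes, and 0 fell (1 at an unadjusted p under 0.05).

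**Figure D5:**
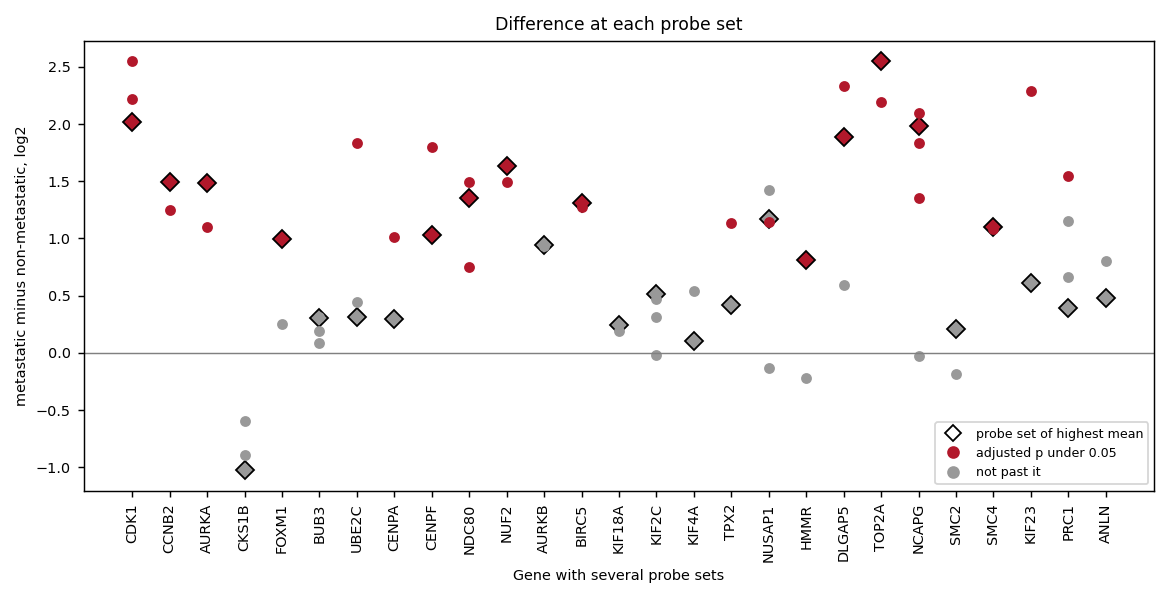
Difference at each probe set of the 27 genes with several probe sets, as metastatic minus non-metastatic log2 intensity. Diamonds mark the probe set of highest mean, and red marks an adjusted p under 0.05. UBE2C, KIF23, PRC1, TPX2 and CENPA have a grey diamond below a red point, and all CKS1B points lie below 0.

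Mitotic genes passed the threshold by spike-in status about as often as all genes did, but leaned higher where the signal was present. Their median difference, NM5 to NM8 minus NM1, NM3 and NM4, was 0.28, against 0.11 over all genes. It was positive in 30 of the 39, against 9071 of 15115 genes, and all metastatic arrays carry the signal. Between NM5 to NM8 and NM1, NM3 and NM4, 7 of the 39 genes were higher past the threshold, against 17.1% of all genes, and 1 was lower (4.29%). Over their 82 probe sets 8 were higher (15.8% of all probe sets) and 4 lower (5.85%). Of the 8 genes that differed at their chosen probe sets, only FOXM1 was among the 22 that rose in metastatic tumours. The others were UBE2C, KIF4A, TPX2, KIF23, ANLN, RACGAP1 and CKS1B, which did not pass in the comparison of outcomes at these probe sets. RACGAP1, for instance, averaged 7.97 in NM5 to NM8 and 6.97 in NM1, NM3 and NM4, and differed between outcomes by 0.19 within the samples of even spike-in signal. The part of spike-in status and RNA integrity in the differences between outcomes was not tested beyond these fits.

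A wider list, also chosen with earlier results of these data known, held 115 measured mitotic genes outside these 39. Of them 21 rose, against 1.65% of all genes, and 2 fell, against 3.7%, with a median difference of 0.36. Within the samples of even spike-in signal 4 rose (0.576% of all genes) and 1 fell (2.24%), with a median of 0.29. In 33 of the 115 neither group's mean was above 7.16, KNTC1, ESPL1, SPAG5 and DEPDC1B among them. Kinetochore and centromere genes gave 8 rises among 28, led by the scaffold KNL1 (2.10 ± 0.40, SE), KNTC1 of the complex that recruits dynein (1.00 ± 0.19, SE) and CENPT, which links centromeric DNA to the outer kinetochore (1.28 ± 0.26, SE), with adjusted p of 0.0122, 0.0131 and 0.0151. Entry regulators gave 5 rises among 19. LIN9, a MuvB subunit, rose by 1.21 ± 0.24 (SE), MYBL2, which encodes B-Myb, by 1.32 ± 0.28 (SE) and the centrosome kinase NEK2 by 0.84 ± 0.20 (SE), with adjusted p of 0.0141, 0.0184 and 0.0281. Spindle and centrosome genes gave 4 rises among 24, among them the spindle protein SPAG5 (1.54), the minus-end motor KIFC1 (1.18) and CKAP2 (0.83).

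Of the 20 other genes of the checkpoint, the anaphase-promoting complex and its regulators, 2 rose (1.65% of all genes) and 1 fell (3.7%), a number of falls near that share. The separase ESPL1 rose by 0.84 and FBXO5, an inhibitor of the complex, by 1.28 (adjusted p = 0.0141 and 0.0164), while its subunit ANAPC5 fell by 0.64 (adjusted p = 0.0199). Of 14 other condensin and cohesin genes 0 passed, with PDS5A, NCAPD3 and NCAPD2 at 0.45, 0.70 and 0.74. At an unadjusted p under 0.05, 7 of the 14 were higher, against 1808 of all 15115 genes. The list of other cytokinesis genes gave 2 rises and 1 fall among 10, beside the same shares of all genes. The 2 that rose were DEPDC1 (2.10) and DEPDC1B (0.74), and a part of theirs in cytokinesis was not tested. CHMP4B, a subunit of the ESCRT-III filaments that finish abscission, fell by 0.86 ± 0.20 (SE, adjusted p = 0.0256). It also fell within the samples of even spike-in signal (-1.05, adjusted p = 0.011). The number of rises in this wider list was 8 without MET1 or MET5 (0.545% and 0.697% of all probe sets). It was 11 without NM3 or NM4 (0.748% and 0.732%). The number of falls was 0 without MET1 or MET5 (6 at an unadjusted p under 0.05 in each), where 1.45% and 1.59% of all probe sets fell. It was 1 without MET2, MET3, NM3 or NM4 (1.81% to 2.36%) and 4 without NM2 (6.4%).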

How the data were processed

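The authors deposited 1 table of processed log2 intensities for 13 arrays, which is log2 as inferred from its values (0 to 14.33). Per the labels' protocols, column-purified total RNA was biotin-labelled by 1 cycle of 3′ in vitro transcription. Software, background correction and normalization were not stated in what was used here. Values were used as deposited, and 111 of 43035 probe sets, Affymetrix controls, were left out. Names came from the platform annotation (probe sets with 1 symbol), and 0 symbols changed through RefSeq gene identifiers. The fit at every probe set used limma 3.58.1 (R 4.3.3; lmFit, eBayes; group as the only term; two-sided; Benjamini-Hochberg over 42924 probe sets; threshold 0.05). Spike-in signal meant a 3′ mean above 6, and even signal a 3′ minus 5′ value of at most 2.

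Members and lists were chosen with earlier results of these data known. Genes named with per-sample values were the 2 of smallest p in each role group, any with a negative difference and several chosen by name; from the wider lists, up to 3 a list of smallest p and any that fell, and from marker lists up to 4. On simulated data with 200 of 42924 probe sets changed, the fit recovered 66% of changes of 1 and 88% of changes of 2 on the log2 scale, for 5 against 8 samples. The simulated noise was independent between probe sets, with no split by spike-in signal, and the changed probe sets were drawn at random. Mitotic genes had median SDs of 0.51 (metastatic) and 0.50 (non-metastatic), against 0.24 and 0.32 for all genes. These rates therefore need not hold for them. The number of arrays limits the precision. Same-numbered samples of the groups deviated with correlations of -0.01 to 0.08. Figures used Python 3.11.15 and matplotlib 3.10.9.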

Additional observations from a re-analysis of the deposited data

Results flagged for a closer look

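In 3 of 116 sets of values (57 named genes and the median of the 39 genes, in each group) 1 tumour stood far from the rest of its group by Dixon's test; chance alone singles out about 1 in 20. AURKA in NM7 was 7.83, with the next non-metastatic tumour at 6.75. PTTG1 in NM3 was 6.68, below the next at 7.59. ANAPC5 in NM6 was 7.23, below the next at 7.59.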

How the results depend on the processing

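The median difference of the 39 genes stayed between 0.95 and 1.11 in the alternatives that change the processing, the covariates or the spike-in samples, and between 0.98 and 1.21 without 1 tumour. Their 22 rises became 12 with spike-in status as a block, 6 with only the samples of even spike-in signal, 1 without NM1, NM3 and NM4, and 12 to 25 without 1 tumour. Of all probe sets 1.56% rose in the main fit, and 0.932%, 0.578%, 0.107% and 0.545% to 4.03% in these. Their 0 falls became 1 (CKS1B) with array weights, with the spike-in block and within the even samples, and 0 to 1 without 1 tumour. Of all probe sets 3.34% fell in the main fit, and 6.36%, 2.94%, 2.2% and 1.45% to 6.4% in these. In the wider list, 21 rises became 13 above the median level (84 genes left, 2.01% of all probe sets at that level). They became 10 with the spike-in block (0.932% of all probe sets) and 12 with the ACTB 3′ minus 5′ covariate (0.955%). Within the even samples 4 rose (0.578%), and without NM1, NM3 and NM4 0 rose (0.107%), with 44 at an unadjusted p under 0.05. Without 1 tumour 8 to 30 rose (0.545% to 4.03%). Its 2 falls became 1 after quantile normalization (2.69% of all probe sets), 4 above the median level (7.08% at that level) and 4 with array weights (6.36%). They became 1 with the spike-in block (2.94%) and 1 within the even samples (2.2%). Without NM1, NM3 and NM4 0 fell (0.375%), with 4 at an unadjusted p under 0.05, and without 1 tumour 0 to 4 fell (1.45% to 6.4%). The 6 rises within the even samples became 4 after quantile normalization, 2 with the ACTB covariate and 0 to 15 without 1 tumour. The cause of these changes in number was not tested. Shares of all genes are not given for these refits of the even samples, nor for any refit at an unadjusted p under 0.05. Of 57 named genes only KIF4A changed sign, to -0.04 with the spike-in block, -0.04 within the even samples and -0.074 without NM1, NM3 and NM4. Of the 22 genes that rose, 11 lost the call in at least 1 fit without 1 tumour. The labels do not say whether sample numbers mark anything shared. With the number as a replicate block 15 of the 39 genes rose and 0 fell (1 at an unadjusted p under 0.05). In the wider list 15 rose and 0 fell (8 at an unadjusted p under 0.05), and of all probe sets 0.594% rose and 1.11% fell. For 12 of the 22 genes that rose, the non-metastatic mean was not above 7.16.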
